A study of Homo sapiens
Mus musculus with 2 samples.

Results

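The mitochondrially encoded genes of human and mouse were followed in single cells of a mixture of cell lines from both species. The members were chosen by identifier and were the 13 protein genes and 2 rRNA genes of the mitochondrial genome of each species, 30 genes in all. The tables held rows for 29259 genes, 25 of them members, 13 human and 12 mouse, and the other 5 members counted as 0 UMIs. A UMI (unique molecular identifier) marks 1 captured molecule, so that its PCR copies are counted once.

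Mitochondria keep a small circular genome of their own, present in many copies per cell. Its 13 proteins are core subunits of the respiratory chain and the ATP synthase, the complexes that pump protons and make ATP, and its 2 rRNAs build the mitochondrial ribosome that translates them. The genome is transcribed as long precursors from both strands, which are cut at tRNAs into the separate mRNAs, and ND6 is the protein gene on the other strand. ATP8 and ATP6 overlap and share 1 mRNA, as do ND4L and ND4. The nuclear genome carries pieces of mitochondrial DNA, so that some reads match both. In single-cell work the share of mitochondrial UMIs is widely read as a sign of cell quality, since RNA of the cytosol leaks from a broken cell more readily than that inside mitochondria.

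The libraries were made with Drop-seq, in which cells meet barcoded beads in droplets and poly(A) RNA is captured at its 3′ end. Jurkat (human CD4+ T cells), TALL104 (human CD8+ T cells), EL4 (mouse CD4+ T cells) and IVA12 (mouse B cells) were mixed in equal parts, with no further treatment in the labels, and loaded at 150 or 300 cells/µl, with 1 library per concentration and no replicate. The tables held 2398956 UMIs over 2000 barcodes at 150 cells/µl and 8707135 UMIs over 4000 barcodes at 300 cells/µl, and 1 barcode sequence occurred in both. Cells were barcodes of at least 1000 UMIs with at least 90% of them from 1 species. There were 87 and 318 human cells at 150 and 300 cells/µl. Mouse cells were split by the sign of the first principal component, computed without the members, into mouse A (49 and 368 cells) and mouse B (36 and 317 cells). Which of them is EL4 was not determined, since the gene identifiers could not be paired with marker symbols, and human cells were kept as 1 class for the same reason.

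The human members made up 2.34% of all human UMIs at 150 cells/µl (95% exact binomial interval 2.31% to 2.38%) and 2.02% at 300 cells/µl (1.997% to 2.04%). The mouse members made up 1.09% (1.08% to 1.11%) and 0.967% (0.960% to 0.975%) of mouse UMIs. Binomial intervals here and below cover counting error alone. Barcodes under the cell limit are included in these shares. Since 6 of the mouse genes were almost uncounted, as described below, the species were also set side by side without those 6 genes in either. The human share was then 1.42% (1.396% to 1.45%) and 1.302% (1.29% to 1.32%), and the mouse share 1.09% (1.08% to 1.11%) and 0.963% (0.955% to 0.970%), so the human share stayed higher with a smaller gap.

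Levels of the members in cells are given as UMIs per 10000 UMIs of the cells' species, a scale on which 3′ counts need no division by gene length. In human cells CO1 (hg19_ENSG00000198804), the catalytic subunit of cytochrome c oxidase (complex IV), had the highest level, 67.0 at 150 cells/µl and 54.3 at 300 cells/µl. The other complex IV subunits CO2 (hg19_ENSG00000198712) and CO3 (hg19_ENSG00000198938) stood at 30.3 and 18.8, and at 27.5 and 22.8. ATP6, a subunit of the proton channel of ATP synthase, had 23.7 and 24.9. CYB (hg19_ENSG00000198727), the cytochrome b of complex III, had 22.7 and 20.6, and ND4, a proton-pumping subunit of complex I, had 20.6 and 20.5. These 6 genes led at 150 cells/µl. At 300 cells/µl ATP6 stood in the second place and CO2 in the sixth, where it did not differ from ND2 beyond the counting error.

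The remaining complex I subunits were lower. ND2 had 15.4 and 18.5 UMIs per 10000, ND1 12.7 and 11.8, ND5 8.84 and 8.43, ND4L 9.07 and 3.45, and ND3 3.81 and 2.01 at 150 and 300 cells/µl. ATP8, the small partner of ATP6, had 4.48 and 2.99. ND6 was the lowest human member with any UMI, at 1.62 and 0.755. The 3 CO genes together made up 50.4% of human mitochondrial UMIs at 150 cells/µl and 45.7% at 300 cells/µl, the 7 ND genes 29.1% and 31.2%, the 2 ATP genes 11.4% and 13.3%, and CYB 9.16% and 9.82%.

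**Figure D1:**
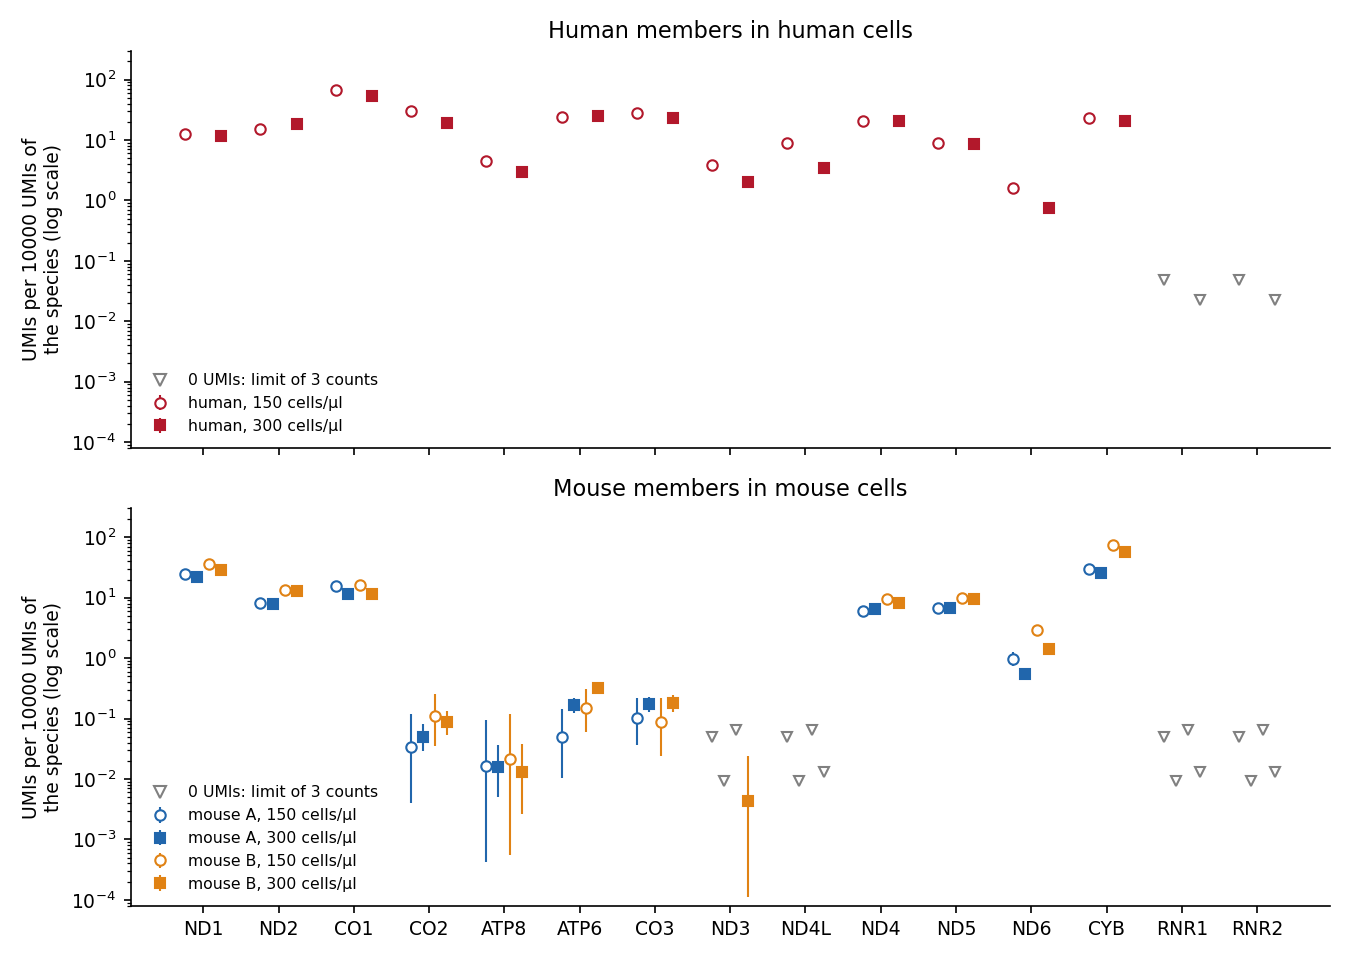
UMIs of each member per 10000 UMIs of its species (log axis), in genome order as listed for the members, in human cells (top) and in mouse A and mouse B cells (bottom) of each library. Bars are 95% exact binomial intervals, and grey triangles mark members with 0 UMIs at the limit of 3 counts. The human levels run from 0.755 to 67.0, and the mouse genes from CO2 to ND4L lie at or below 0.324.

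In mouse cells CYB (mm10_ENSMUSG00000064370) led in both groups and both libraries. At 150 and 300 cells/µl mouse A had 29.8 and 25.3 UMIs per 10000 and mouse B had 74.4 and 57.7. ND1 (mm10_ENSMUSG00000064341) followed, with levels of 24.98 and 22.05 for mouse A beside 36.0 and 28.9 for mouse B. CO1 (mm10_ENSMUSG00000064351), the leading gene in human cells, had 15.8 and 11.6 for mouse A beside 16.2 and 11.6 for mouse B. ND2, ND4 and ND5 ranged from 5.96 to 13.3, and ND6 from 0.547 to 2.95. CYB thus took 32.1% and 31.1% of the mitochondrial UMIs of mouse A, and 45.7% and 44.1% of those of mouse B. In human cells it took 9.16% and 9.82%, but of mitochondrial UMIs of which 39.9% and 35.7% came from CO2 to ND4L. Those genes were almost uncounted in mouse, as described below, so the human and mouse percentages of CYB have unlike denominators.

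A run of 6 neighbouring genes was almost uncounted in mouse. In genome order these are CO2, ATP8, ATP6, CO3, ND3 and ND4L, and in both species they lie between CO1 and ND4. In human cells they held 6090 of 15271 mitochondrial UMIs at 150 cells/µl (39.9%, interval 39.1% to 40.7%) and 9929 of 27821 at 300 cells/µl (35.7%, 35.1% to 36.3%). In mouse A they held 12 of 5554 UMIs (0.216%, 0.112% to 0.377%) and 129 of 25995 (0.496%, 0.414% to 0.589%). In mouse B they held 17 of 7514 (0.226%, 0.132% to 0.362%) and 141 of 30284 (0.466%, 0.392% to 0.549%). The intervals of the species were far apart in both libraries, and those of mouse A and mouse B overlapped.

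Within this run the mouse genes were not all alike. At 300 cells/µl, the deeper library, mouse cells had 128 UMIs of ATP6, 97 of CO3, 36 of CO2, 8 of ATP8 and 1 of ND3. ND4L had no row in either table, and ND3 had none at 150 cells/µl. If mouse ND4L was in the annotation used for counting, 0 counts allow a level of up to 0.00937 per 10000 in mouse A at 300 cells/µl. Human ND4L stood at 3.45 there in human cells. Reads of these genes that also match nuclear copies may have gone uncounted, which was not tested. The members of the run are therefore uncertain in mouse, and the mouse share is a share of the counted members.

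The rRNA genes RNR1 and RNR2 had no row in either table for either species. A limit can be given only if they were in the annotation used for counting. In that case 0 counts in human cells allow up to 0.0487 and 0.0226 UMIs per 10000 at 150 and 300 cells/µl. Whether RNR1 and RNR2 were left out of that annotation or were not captured was not tested. The share described here is thus one of mitochondrial mRNAs.

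Detection per cell followed the levels. At 150 cells/µl CO1 and ND4 were found in 100% of the 87 human cells, and 12 of the 13 counted human genes in 83.9% or more, with ND6 in 57.5%. At 300 cells/µl, with a median of 3714 UMIs per human cell against 6383, CO1 was found in 99.1% of 318 cells, ATP8 in 58.5%, ND3 in 46.5%, ND4L in 62.3% and ND6 in 25.8%. As a measure of background, human CO1 was found in 14.1% of 85 and 9.64% of 685 mouse cells, at median depths of 12164 and 7211 UMIs, and human ND3 in 0.292% of the latter. Mouse CYB was found in 100% and 98.4% of mouse cells and in 17.2% and 25.5% of human cells. Mouse ATP6 was found in 10.6% and 15.8% of mouse cells and, at 300 cells/µl, in 0.314% of human cells, which held far fewer mouse UMIs. Per 10000 mouse UMIs it did not differ there beyond counting error, at 0.232 in mouse cells and 0.200 (0.005 to 1.11) in human cells.

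The share per cell was then described by class. In human cells the median share of human UMIs from members was 2.45% at 150 cells/µl (95% order-statistic interval 2.35% to 2.56%, n = 87 cells) and 2.003% at 300 cells/µl (1.95% to 2.08%, n = 318). The quartiles were 2.22% and 2.83%, and 1.74% and 2.41%. The mouse A medians were 0.917% (0.806% to 0.991%, n = 49) and 0.791% (0.747% to 0.817%, n = 368). The mouse B medians were 1.28% (1.16% to 1.82%, n = 36) and 1.13% (1.06% to 1.19%, n = 317). In both libraries the medians ran from human over mouse B to mouse A with intervals apart, but over unequal sets of counted genes. Without CO2 to ND4L in both species, an alternative added after the values were seen, the human medians were 1.49% (1.44% to 1.59%) and 1.32% (1.28% to 1.36%). Those of mouse B were then 1.28% (1.16% to 1.82%) and 1.12% (1.06% to 1.18%), and those of mouse A 0.917% and 0.788%. On these genes the human and mouse B intervals overlapped at 150 cells/µl, where the share of summed UMIs was lower in human cells (1.49%) than in mouse B (1.62%). There, 8 mouse B cells above 5%, described below, held 19.6% of the mitochondrial UMIs of mouse B and 3.15% of its mouse UMIs. Without those cells the summed level of all members in mouse B was 135 UMIs per 10000, beside 163 with them. A median human cell held 161 and 71 mitochondrial UMIs, a mouse A cell 104 and 63, and a mouse B cell 181 and 74.

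**Figure D2:**
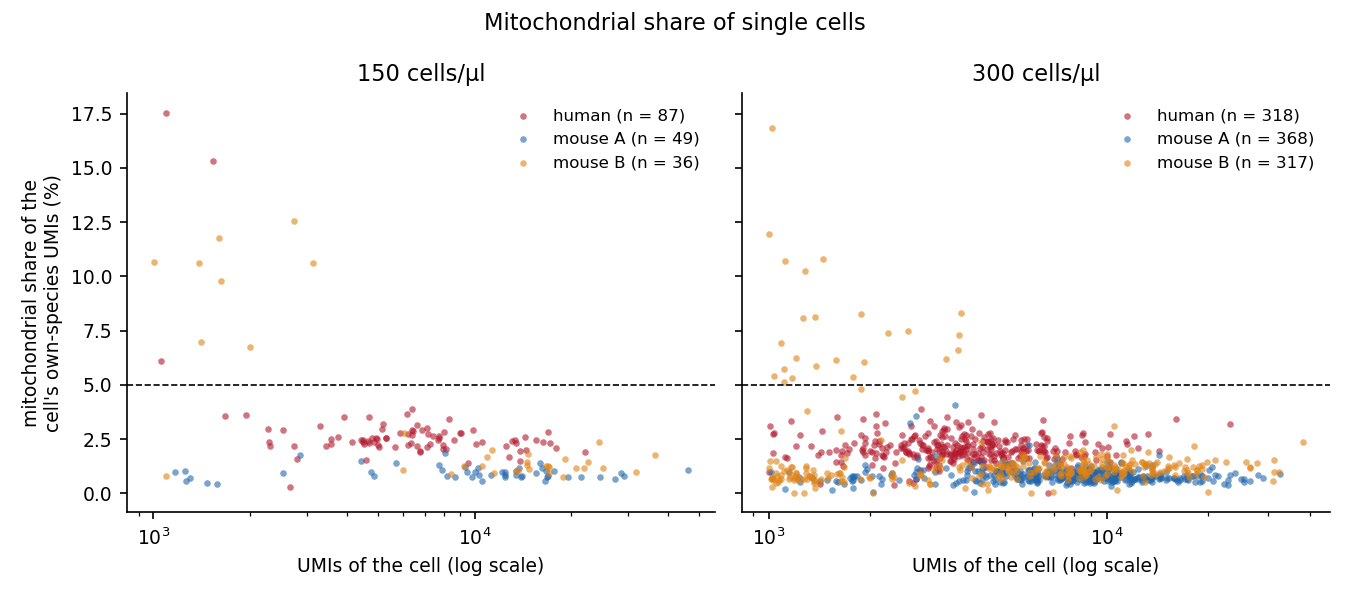
Mitochondrial share of each cell's UMIs of its own species (percent) against its total UMIs (log axis), by class, in each library; each point is 1 cell and the dashed line is the limit of 5%. The mouse B cells above the line have 1002 to 3702 UMIs, and no mouse A cell is above it.

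Cells differed by more than counting error. Among cells at or under 5%, the SD of the share in human cells was 0.554 and 0.574 percentage points, where counting alone would give 0.211 and 0.257. In mouse A the SD was 0.292 and 0.371 against 0.131 and 0.120 from counting, and in mouse B 0.468 and 0.585 against 0.119 and 0.190. The spread of cells thus exceeded the counting SD in each class of both libraries.

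Cells above 5% were found mainly in mouse B. There, 8 of 36 cells exceeded the limit at 150 cells/µl (22.2%, exact interval 10.1% to 39.2%) and 24 of 317 at 300 cells/µl (7.57%, 4.91% to 11.1%). In mouse A 0 of 49 and 0 of 368 cells did, with exact upper limits of 7.25% and 0.997%. In human cells 3 of 87 did at 150 cells/µl (3.45%, 0.717% to 9.75%) and 0 of 318 at 300 cells/µl, with an exact upper limit of 1.15%. The highest shares were 17.5% in a human cell at 150 cells/µl, and 12.5% and 16.9% in mouse B cells at 150 and 300 cells/µl.

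These cells were shallow. The 8 and 24 mouse B cells above the limit had medians of 1613 and 1373 UMIs, where the other mouse B cells had 14706 and 6581. Their median number of mitochondrial UMIs was 149 and 114, beside 195 and 70 in the others, while their UMIs from all other mouse genes had medians of 1388 and 1247 beside 14445 and 6484. They held 3.15% and 1.81% of the mouse UMIs of mouse B, and 19.6% and 10.4% of its mitochondrial UMIs. The 3 human cells had 1060 to 1538 UMIs, beside a median of 6392 in the others. In both species the high share thus went with few UMIs of other genes, and the count of mitochondrial UMIs stayed within 2-fold of that in deeper cells.

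For CYB and ND1 the make-up of mitochondrial UMIs in the mouse B cells above the limit was close to that of the rest. CYB took 44.0% and 43.4% of them at 150 and 300 cells/µl, beside 46.1% and 44.2% in the other mouse B cells, and ND1 took 23.6% and 22.4% beside 21.7% and 22.1%. Intervals were apart for ND5 at 150 cells/µl (4.69% beside 6.54%) and for ND6 at 300 cells/µl (1.59% beside 1.02%). At the other concentration those of each gene overlapped. In the 3 human cells CO1 took 29.4% beside 26.99% in the other human cells.

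Since shallow mouse cells are harder to place, their group was set beside genes called between the same groups in deeper cells. Genes used for the grouping were not left out of these. The shares below are thus in part given in advance and are no independent check. In mouse cells of at least 5000 UMIs, edgeR called 722 genes over 4-fold higher in mouse A and 698 over 4-fold higher in mouse B, members left out. Of the UMIs of these genes, each mouse B cell above the limit had at least 75% from the mouse B genes, with medians of 89.4% and 88.0% over the 8 and 24 cells. Mouse A cells of at least 1000 and under 5000 UMIs had medians of 7.5% and 8.75%. Among the mouse B cells of that depth at or under 5%, 0 of 1 and 92 of 116 had over 50% from the mouse B genes, so the remainder were placed in mouse B against most of these UMIs. With groups taken from Leiden clusters, 1 of 85 and 69 of 685 mouse cells changed group at 150 and 300 cells/µl. Of the 24 cells above the limit at 300 cells/µl, 3 then fell in mouse A and 21 in mouse B. Near the dividing score (within 3 units of 0) lay 8 of 85 and 43 of 685 mouse cells, none of them above the limit.

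A few cells stood far below their class. Of 1175 cells, 18 had under 25% of the median share of their class and library, a rule chosen after the values were seen, 10 of them in mouse B, 4 in mouse A and 3 among human cells at 300 cells/µl, and 1 among human cells at 150 cells/µl. The deepest of the human cells had 6450 human UMIs and 1 from members, where the class median would give 129. The deepest of the mouse B cells had 19991 mouse UMIs and 17 from members, where the median would give 225. In these cells 3.87% and 0.235% of UMIs were of the other species, beside medians of 3.60% and 0.5005% in their classes. Low shares were thus found in deep cells too.

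Depth classes were compared over all barcodes of 1 species. Human barcodes at 300 cells/µl showed little change below 10000 UMIs. Their share of summed human UMIs was 2.12% from 1000 to under 2000 UMIs (36 barcodes), 2.08% to under 5000 (196) and 2.001% to under 10000 (73). At 10000 or more it was higher beyond the counting error, at 2.44% (13). At 150 cells/µl the values were 8.49% (5 barcodes), 2.43% (26), 2.58% (39) and 2.21% (17). The first of these rested on 5 barcodes, 3 of which were the cells above the limit.

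**Figure D3:**
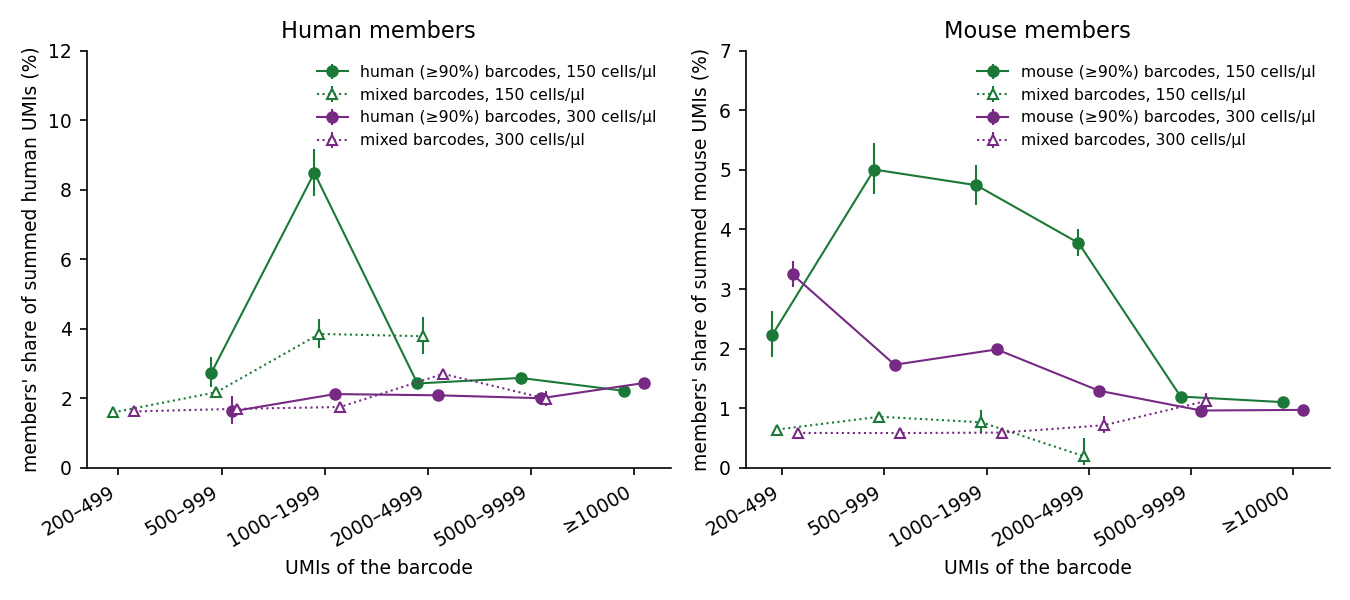
Members' share of the summed UMIs of their species (percent) by UMIs of the barcode, for barcodes with at least 90% of UMIs from that species (filled) and for mixed barcodes (open), in each library; bars are 95% exact binomial intervals and classes of fewer than 3 barcodes are left out. The mouse share falls from 4.74% and 1.99% in the class starting at 1000 UMIs to 1.19% and 0.961% in that starting at 5000 UMIs.

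Mouse barcodes, both groups together, had higher summed shares at low depth. At 150 cells/µl the share of summed mouse UMIs was 5.01% from 500 to under 1000 UMIs (15 barcodes), 4.74% to under 2000 (12), 3.77% to under 5000 (8), 1.19% to under 10000 (13) and 1.10% at 10000 or more (52). At 300 cells/µl it was 1.73% (248 barcodes), 1.99% (109), 1.29% (121), 0.961% (250) and 0.971% (205). These classes hold both mouse groups, and at 300 cells/µl 85 of the 109 mouse cells under 2000 UMIs were placed in mouse B. The placing of shallow cells was uncertain there. Of 116 mouse B cells under 5000 UMIs and at or under 5%, 92 had over 50% from the mouse B genes. The values of shallow mouse B cells at 300 cells/µl may thus include cells of mouse A. Within mouse A the summed share was not higher in the shallowest cells, at 0.682% (6 cells) and 0.687% (24 cells) under 2000 UMIs. At 10000 UMIs or more it was 0.896% (0.870% to 0.922%, 29) and 0.767% (0.754% to 0.780%, 118). From 2000 to under 5000 UMIs it was higher with intervals apart from these, at 1.17% (1.02% to 1.33%, 5) and 0.975% (0.937% to 1.01%, 66). Within mouse B it was 8.78% (6) and 2.44% (85) under 2000 UMIs and 1.35% (23) and 1.23% (87) at 10000 UMIs or more. Over both groups the medians moved much less, from 0.733% in the class of 500 UMIs to 0.883% at 10000 or more at 300 cells/µl. In the class of 500 UMIs, 4 of 15 and 21 of 248 barcodes exceeded 5%, with highest values of 20.4% and 24.4%.

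Mixed barcodes of the lowest depth class gave lower shares than cells. From 200 to under 500 UMIs they had 1.59% (1.53% to 1.66%) and 1.62% (1.54% to 1.70%) of human UMIs from human members at 150 and 300 cells/µl (1517 and 1283 barcodes), and 0.642% (0.616% to 0.669%) and 0.584% (0.562% to 0.607%) of mouse UMIs from mouse members. Molecules of the other species within cells were counted too. Mouse UMIs in human cells of 2000 to under 5000 UMIs came from members at 0.624% (0.342% to 1.05%) and 0.551% (0.469% to 0.644%). Human UMIs in mouse cells of at least 10000 UMIs came from members at 1.27% (0.901% to 1.73%) and 0.988% (0.818% to 1.18%). The mixed barcodes of this depth thus lay below the median of cells of the same species, for human, mouse A and mouse B cells in both libraries.

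Whether member levels moved with cell depth was tested within each class, by comparing cells below the class median of UMIs with those at or above it in each library. The test was edgeR's quasi-likelihood test on 4 sums of UMIs with the library as a block, and p-values were adjusted over all genes of the species tested (Benjamini-Hochberg). Both libraries are of the same mixture, so p-values do not measure the spread between cultures. With 4 sums per test, each gene's error is drawn largely from all genes tested and little from its own spread between libraries. In human cells 0 of 13 tested members passed, beside 0.0% of 6133 genes. At an unadjusted p under 0.05 the counts were 0 members and 297 genes, and DESeq2 called 0 members. The member log2 differences, deeper minus shallower cells, ranged from -0.26 (CYB) to 0.31 (ND3). In mouse A 0 of 9 members passed, beside 0.0288% of 6956 genes (0.0144% higher and 0.0144% lower), with 1 member (ND4, -0.30) at an unadjusted p under 0.05 and 0 called by DESeq2. By counting error, the summed mouse A share was still higher in the shallower cells. It was 1.03% (0.975% to 1.08%) beside 0.897% (0.869% to 0.924%) at 150 cells/µl. At 300 cells/µl it was 0.893% (0.873% to 0.913%) beside 0.781% (0.769% to 0.792%). Of the 9 log2 differences in mouse A, 7 were below 0 and 2 above.

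In mouse B 4 of 8 tested members had lower summed levels in the deeper cells. Of 5647 genes 0.124% were lower and 0.0354% higher (0.159% in either direction). The median share per cell was 2.39% in the shallower and 1.23% in the deeper cells at 150 cells/µl. At 300 cells/µl it went the other way, at 1.01% and 1.17%, and the intervals of these medians overlapped in both libraries. As given above, the placing of shallow cells in mouse B was uncertain at 300 cells/µl, so its shallower cells may include cells of mouse A. CYB had 119.6 and 80.1 UMIs per 10000 in the shallower cells at 150 and 300 cells/µl, and 61.5 and 53.1 in the deeper cells. Its level fell by 0.76 on the log2 scale (SE 0.11, adjusted p 0.0138, edgeR). ND1 fell by 0.70 (SE 0.11), CO1 by 0.78 (SE 0.13) and ND5 by 0.77 (SE 0.12), each with an adjusted p of 0.0244 (edgeR). ND5, like ND4, is a proton-pumping subunit of complex I. ND2 (-0.68), ND4 (-0.74), ND6 (-0.62) and ATP6 (-0.05) did not pass.

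The cells above the limit all lay among the shallower cells (8 of 18 and 24 of 158 cells). Leaving them out lowers the level of that side by construction, since they were chosen by their member share, and it also moved the dividing depth from 13514.5 to 14706 and from 5739 to 6581 UMIs. Without them 0 of 7 tested members passed, the share of summed mouse UMIs was 1.39% and 1.12% in the shallower cells and 1.33% and 1.21% in the deeper ones, and the log2 differences of ND1 and CO1 turned to 0.17 and 0.06. Without the library as a block 0 passed as well, and DESeq2 called 2 (ND1 and CYB). Whether the depth difference itself differed between mouse A and mouse B was tested with an interaction term, chosen after the values were seen. The difference, mouse B minus mouse A, was below 0 for 8 of 8 members and had an unadjusted p under 0.05 for 7, but none passed after adjustment (edgeR, lowest adjusted p 0.156, CO1), beside 0.387% of 6980 genes (0.372% below 0 and 0.0143% above).

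Mouse B and mouse A were then compared over all cells of each, with the same test. Of 10 tested members 7 were higher in mouse B and 0 lower, beside 27.5% of 8931 genes higher and 29.2% lower (56.7% in either direction). The median member log2 difference was 0.56, against -0.03 over all genes tested. The other 5 mouse members did not pass the filter on low counts or had no row. The number of members called was thus close to the share called over all genes, and their direction was the same for all 7.

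CYB differed most firmly. Its levels of 29.8 and 25.3 UMIs per 10000 for mouse A and 74.4 and 57.7 for mouse B did not overlap, and the log2 difference was 1.21 (SE 0.06, adjusted p 9.55e-89, edgeR). ND6 had the largest difference, with levels of 0.985 and 0.547 for mouse A beside 2.95 and 1.42 for mouse B, a log2 difference of 1.40 (SE 0.16, adjusted p 3.55e-17, edgeR). ND2 differed by 0.63 (SE 0.08), ND5 by 0.48 (SE 0.09), ND4 by 0.42 (SE 0.09) and ND1 by 0.41 (SE 0.07), all with adjusted p of at most 1.43e-05 (edgeR). The 5 complex I genes tested and CYB were thus higher in mouse B by unequal amounts. ND3 and ND4L were not tested.

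CO1 did not pass, with nearly equal levels of mouse A and mouse B in each library (log2 difference -0.02, SE 0.08, adjusted p 0.818, edgeR). Without the cells above the limit, CO1 was lower in mouse B by counting error, at a log2 ratio of -0.27 (95% interval -0.42 to -0.12) at 150 cells/µl and -0.12 (-0.19 to -0.04) at 300 cells/µl, and was not called (-0.13, edgeR). Of the scarcely counted genes, ATP6 was higher in mouse B (0.99, SE 0.31, adjusted p 0.00334, edgeR), on 3 and 53 UMIs for mouse A beside 7 and 75 for mouse B, and DESeq2 did not call it. CO2 (0.90, SE 0.57) and CO3 (0.01, SE 0.36) did not pass.

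**Figure D4:**
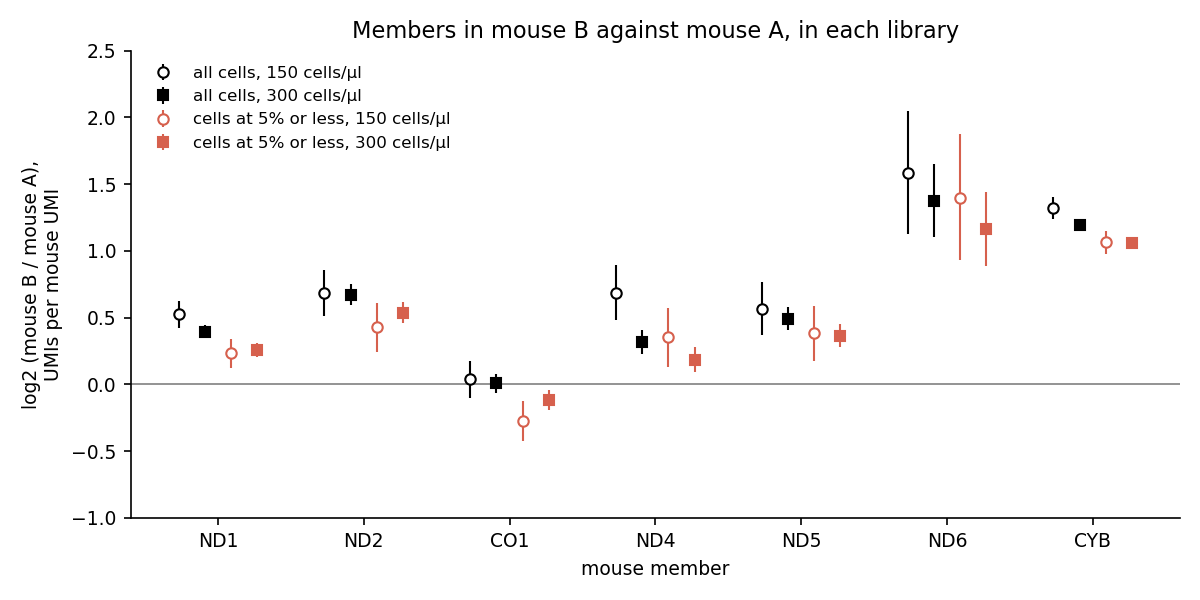
Log2 ratio of mouse B over mouse A, in UMIs per mouse UMI, for the 7 well-counted mouse members in each library, over all cells (black) and over cells at or under 5% (red); bars are 95% exact conditional binomial intervals. ND6 and CYB lie above 1 and CO1 lies at or under 0.04 in each case.

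Without the cells above the limit 7 members passed as well, and the log2 difference was 1.12 for CYB, 1.299 for ND6, 0.54 for ND2, 0.43 for ND5, 0.30 for ND4 and 0.30 for ND1. Within each library the log2 ratio of CYB was 1.32 (95% interval 1.24 to 1.40) and 1.19 (1.15 to 1.23) over all cells at 150 and 300 cells/µl, and that of ND6 was 1.58 (1.13 to 2.05) and 1.37 (1.11 to 1.65). Without the library as a block, the count fell to 2 of 10 (ND6 and CYB), and in mouse cells of at least 5000 UMIs CO1 passed too, as lower in mouse B (-0.21).

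Finally, members were compared between the loading concentrations within each class. With 1 library each there is no replicate check and no test. Relative to all UMIs of the species, the summed members were lower at 300 than at 150 cells/µl in human cells (log2 ratio -0.24, 95% interval -0.27 to -0.21), mouse A (-0.19, -0.23 to -0.15) and mouse B (-0.32, -0.35 to -0.28). Without the cells above 5% the mouse B ratio was -0.18. The median gene of at least 100 UMIs had a log2 ratio of 0.08, 0.14 and 0.14 in these classes, and TMM scaling moved the member ratios to -0.36, -0.31 and -0.45. The 3 classes thus moved the same way under both scalings.

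The lower level at 300 cells/µl was uneven among human members. ND4L (hg19_ENSG00000212907) fell from 9.07 to 3.45 UMIs per 10000, a log2 ratio of -1.39 (-1.58 to -1.21). ND6 (hg19_ENSG00000198695) had -1.10 (-1.52 to -0.69), ND3 (hg19_ENSG00000198840) -0.93 (-1.18 to -0.67) and ATP8 (hg19_ENSG00000228253) -0.58 (-0.81 to -0.36). These 4 genes are the shortest protein genes of the mitochondrial genome. Summed, a grouping made after the values were seen, they stood at 19.0 and 9.20 UMIs per 10000 at 150 and 300 cells/µl, a log2 ratio of -1.04 (-1.16 to -0.93), while the other members had -0.19 (-0.22 to -0.16). Since the 4 genes were picked for their values, the gap between the sums is a description, and CO2, counted among the other members, was lower than ATP8.

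The longer genes were not uniform either. CO2 had a log2 ratio of -0.68 (-0.77 to -0.60), CO1 of -0.30 (-0.36 to -0.25) and CO3 of -0.27 (-0.36 to -0.18). ND4, which shares its mRNA with ND4L, had -0.01 (-0.10 to 0.09), and ATP6, which shares its mRNA with ATP8, had 0.07 (-0.02 to 0.16). ND2 was the human member that was higher at 300 cells/µl, at 0.27 (0.16 to 0.38). Over all human genes of at least 100 UMIs, 1.77% differed by more than 2-fold, and the middle 90% lay between -0.55 and 0.70. ND3, ND4L, ND6, CO2 and ATP8 lay below that range.

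**Figure D5:**
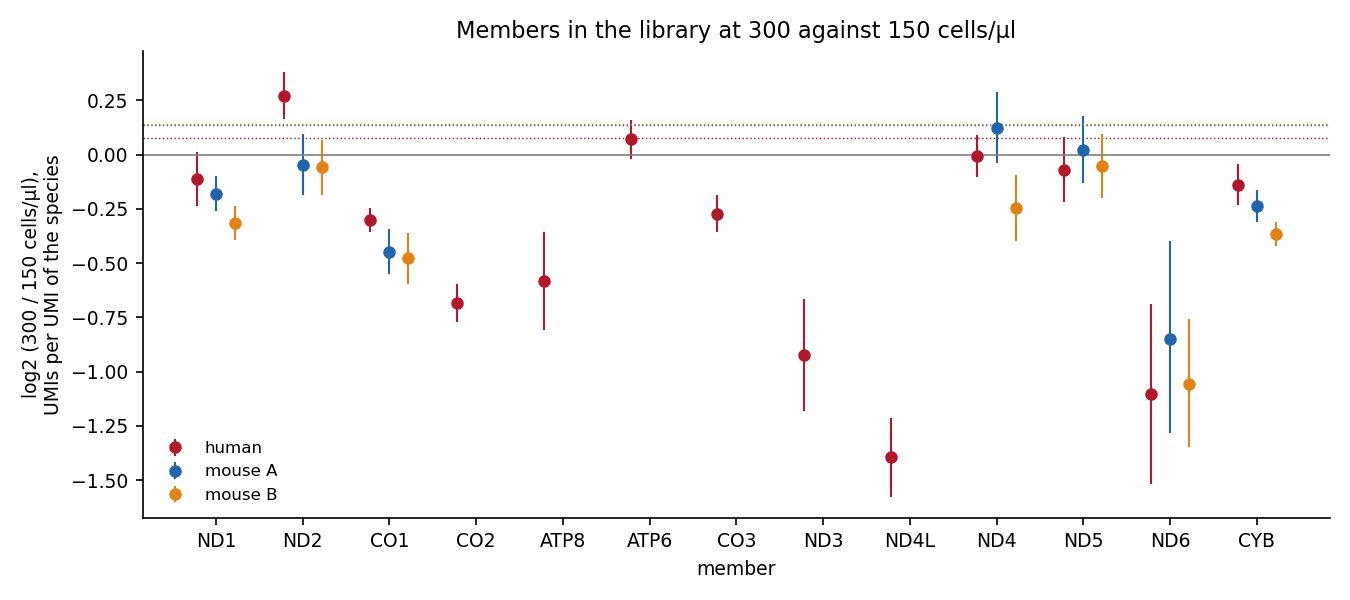
Log2 ratio of the library at 300 over that at 150 cells/µl, in UMIs per UMI of the species, for members with at least 100 UMIs in a class; bars are 95% exact conditional binomial intervals and dotted lines are the medians of all genes of at least 100 UMIs. ND6 lies between -1.10 and -0.85 in human, mouse A and mouse B cells, and human ND4L is lowest at -1.39.

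In mouse cells ND6 (mm10_ENSMUSG00000064368) had the lowest ratio of the members with at least 100 UMIs, with -0.85 (-1.28 to -0.40) in mouse A and -1.06 (-1.35 to -0.76) in mouse B. CO1 had -0.45 (-0.55 to -0.34) and -0.48 (-0.60 to -0.36), and CYB -0.24 (-0.31 to -0.16) and -0.37 (-0.42 to -0.31). ND2 and ND5 had intervals that included 0 in both groups. Mouse ATP6, on 3 and 53 UMIs in one group and 7 and 75 in the other, had higher ratios, of 1.72 (0.10 to 4.05) for mouse A and 1.10 (-0.02 to 2.46) for mouse B. The mixed low-UMI barcodes showed the same for the short human genes, with ND4L at 6.19 and 2.29 UMIs per 10000 human UMIs, ND3 at 2.75 and 1.47, ATP8 at 4.29 and 1.59 and ND6 at 1.54 and 0.775. Human cells were shallower at 300 cells/µl, and human cells at the 2 concentrations may differ in their make-up of Jurkat and TALL104, whose part in these ratios was not tested.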

How the data were processed

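The values deposited by the authors were UMI counts, in a gene by barcode table for each library. Per the study's methods, reads were downsampled and processed with the Drop-seq tools on a joint human and mouse reference. The submitters' processing notes name STAR 2.4.2a and Cell Ranger 1.2.0, the latter being the source of the hg19 and mm10 reference per the study. It is not given in the sources used here if the counts precede or follow that downsampling.

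Members were taken by identifier, and members and lists were chosen with earlier results of these data known. All members may be named. Symbols of nuclear respiratory genes and cell type markers could not be matched, so these lists were not applied. The mitochondrial limit of 5% is that of the study's supplement.

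Mouse cells were grouped on 2000 variable genes, each seen in 10 or more cells, scaled to 10000 UMIs and log-transformed, members left out. No doublet caller was run, and mixed barcodes were left out of cells. UMI sums were tested with edgeR 4.0.16 (R 4.3.3; TMM, filterByExpr, quasi-likelihood F test, Benjamini-Hochberg at 0.05), with the library as a block because both sides of each comparison come from the same library. The SE is the log2 difference divided by the square root of F. Alternatives were DESeq2 1.42.0, no block, no TMM, no filter on low counts, members left out of totals, Leiden groups and other limits on cells. Other steps used Python 3.11.15. The deposited tables held 2398956 and 8707135 counts, and the precision of each value is given by its interval.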

Additional observations from a re-analysis of the deposited data

How the results depend on the processing

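Of 46 alternative medians of the share, 29 stayed within the interval of the main one. Without the highest member (CO1 in human, CYB in mouse) the medians were 1.82% and 1.48% in human cells, 0.611% and 0.533% for mouse A, and 0.704% and 0.617% for mouse B, at 150 and 300 cells/µl, so mouse A and mouse B lay closer. Without CO2 to ND4L (added after seeing the data) they were 1.49% and 1.32% in human cells. With a limit of 500 UMIs the mouse cells were grouped anew: 27 of 36 and 201 of 317 mouse B cells went to mouse A, 8 of 49 and 34 of 368 mouse A cells to mouse B, and all 15 and 248 added cells to mouse B. These groups are not those of the report, and the limit and the grouping changed together. Their medians were 1.03% and 0.916% for mouse A and, at 300 cells/µl, 0.781% for mouse B, or 0.807% over its cells of at least 1000 UMIs (added after seeing the data). At 300 cells/µl human cells had 1.94% over all UMIs of both species and 2.10% over summed UMIs, and mouse B had 1.31% over summed UMIs. The share of mouse B cells above the limit at 300 cells/µl was 1.58% at a limit of 10% and 11.3% in the regrouped cells of at least 500 UMIs, and 6.56% after thinning to 1000 UMIs, beside 7.57%.

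The log2 ratio between libraries stayed below 0 in each alternative. With cells weighted equally it was -0.45 in human cells and -0.998 in mouse B, without cells above the limit (added after seeing the data) -0.20 and -0.18, and with TMM scaling -0.36 in human cells, -0.31 in mouse A and -0.45 in mouse B.

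Of 10 members tested between mouse groups, 7 passed, or 2 with no replicate block (the block being the library, which both groups share) and 6 to 8 in the other alternatives. Genes called fell from 5067 to 3438 with no block and to 1955 with DESeq2. Between shallower and deeper cells of mouse B 4 passed, or 0 with no replicate block, 2 with DESeq2, 5 without TMM, 6 of 12 tested with no filter on low counts, 5 with members left out of totals, 4 with the split at other UMIs and 0 without cells above the limit, where ND1 (0.17) and CO1 (0.0614) turned direction, since that setting removes the cells of highest share from the shallower cells. In human cells and mouse A 0 members passed in each alternative. Leaving out either library leaves values with no test, which are given per library above. Depth limits the scarcely counted mouse genes in both libraries.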
